A study of Homo sapiens with 12 samples.

Results

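The genes described here are 9 feedback inhibitors and output genes of the ERK pathway: the Sprouty genes SPRY1, SPRY2 and SPRY4, the Sprouty-related genes SPRED1 and SPRED2, the transcription factor genes ETV4 and ETV5, and PHLDA1 and ERRFI1. They were taken by symbol from probe sets annotated to 1 gene, among 19775 genes on the arrays, of which 13130 were tested. The 9 genes had 24 probe sets. Each gene was read from its probe set with the highest mean over the arrays, and the other 15 probe sets served as a check. All 9 genes lay at log2 4 or more on all 12 arrays, so each passed the filter on low values in every group.

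Growth factors bind receptor tyrosine kinases, which switch on Ras and then the kinases Raf, MEK and ERK. Active ERK induces inhibitors of its own pathway, among them Sprouty proteins, which act near the receptor, and Spred proteins, which act on Ras and Raf. It also induces output genes such as ETV4 and ETV5, so the transcripts of these genes are widely used as a readout of ERK activity.

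Sk-hep1 is an established human cell line, labelled as an adenocarcinoma of liver and ascites with an endothelial cell type; all 4 groups come from this 1 line. The cells were kept in growth medium (GM, on a DMEM base; the cells had been grown in DMEM with 10% fetal bovine serum) or in high-fat medium (HFM, on a DMEM/F12 base) for 12 or 24 hours, with 3 arrays in each of the 4 groups. Neither the fat nor the serum of HFM is named in the labels, so fat, serum and basal medium cannot be told apart. The labels do not tie replicates to different cultures or days, and the spread behind each p-value may be technical. RNA was measured on Affymetrix arrays, and levels are GCRMA values on the log2 scale, where 1 unit is a 2-fold difference. The number of arrays limits the precision, and levels of different genes are not compared, since probe sets bind with different strength.

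Some properties of the arrays moved with the groups. HFM replicate 1 at 12 hours stood apart from the other arrays of its group: its median over tested genes was 7.38, against 7.26 on the other 2 arrays, and its hybridisation controls averaged 10.81, against 10.59 and 10.66 on those 2 arrays and 10.82 to 10.88 in GM at 12 hours. In GM at 24 hours they averaged 10.47 to 10.66, so the 2 GM times also differ in this array property. The 3 HFM arrays at 24 hours had the lowest medians over tested genes, between 7.08 and 7.09. The ACTB signal at the 3' end minus that at the 5' end, a measure of RNA integrity, was 1.58 ± 0.06 (SD, n = 3) in HFM at 24 hours against 1.07 ± 0.05 in GM. Of 12 endothelial markers, 5 reached the filter. These were ROBO4 (5.99 to 7.48), NOS3 (3.69 to 5.28), ICAM2 (3.87 to 4.99), PECAM1 (3.79 to 4.56) and ESAM (3.79 to 4.30). The defining genes VWF (2.76 to 3.37), CDH5 (2.07 to 2.77) and KDR (1.97 to 2.33) stayed near the bottom of the scale on all arrays. ROBO4 has the largest part in the summed endothelial level, and its mean at 12 hours was 7.43 in GM and 6.41 in HFM. The summed endothelial marker level lay between 8.38 and 8.40 in GM and between 7.65 and 7.71 in HFM at 12 hours. At 24 hours it lay between 7.87 and 7.99 in GM and between 7.40 and 7.63 in HFM. Of the hepatocyte, leukocyte and epithelial markers, 5 of 9, 4 of 7 and 4 of 8 on the array reached the filter. The keratin genes KRT18 (13.28 to 13.72), KRT8 (11.99 to 12.61) and KRT19 (10.70 to 11.85) were high on all arrays, and ALB, PTPRC and EPCAM were under the filter. In HFM at 12 hours, 4 of 5 tested endothelial, 3 of 4 epithelial and 3 of 4 leukocyte markers fell, against 33.0% of all tested genes. Of 5 tested hepatocyte markers 1 rose and 1 fell, and of 6 tested fibroblast or mesenchymal markers 0 rose and 2 fell. The summed fibroblast or mesenchymal level at 12 hours lay between 13.57 and 13.59 in GM and between 13.59 and 13.67 in HFM. The summed epithelial level lay between 14.48 and 14.52 in GM and between 14.23 and 14.39 in HFM at 12 hours, and between 14.12 and 14.20 in GM and between 13.95 and 14.03 in HFM at 24 hours. The summed leukocyte level went from 7.74 to 7.83 in GM to 7.34 to 7.42 in HFM at 12 hours, and from 7.25 to 7.32 to 7.10 to 7.20 at 24 hours. The part of the markers and of the ACTB measure in the results was not tested; values with centred arrays, with a term for the hybridisation controls and without HFM replicate 1 are given where they differ.

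The sequences before the transcription start are shown for 3 genes that followed 3 different courses in HFM: SPRY2, which was lower at 12 hours alone, SPRED2, which was lower at both times, and ERRFI1, which was higher at both. They are the 250 bases upstream of the most upstream RefSeq start in GRCh38.p14, all on the minus strand: chr13:80341127-80341376 for SPRY2, chr2:65432600-65432849 for SPRED2 and chr1:8026310-8026559 for ERRFI1. Capitals mark TGACG, the core of the cyclic AMP response element, GGGCGG, the SP1 box, and CCAAT, each on either strand; the SPRED2 stretch holds none of them. For SPRY4, which also fell at 12 hours, 30 bases around a TGACG are shown (chr5:142324298-142324327, minus strand, GRCh38.p14). This stretch was chosen for its TGACG and lies before a RefSeq start that is not the most upstream one of the gene. A link between the motif and the fall was not tested.
SPRY2: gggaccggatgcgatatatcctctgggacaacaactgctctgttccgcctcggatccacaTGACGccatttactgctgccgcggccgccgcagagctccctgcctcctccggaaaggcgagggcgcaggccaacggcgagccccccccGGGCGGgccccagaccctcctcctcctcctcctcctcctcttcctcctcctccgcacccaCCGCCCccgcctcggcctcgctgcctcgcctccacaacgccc
SPRED2: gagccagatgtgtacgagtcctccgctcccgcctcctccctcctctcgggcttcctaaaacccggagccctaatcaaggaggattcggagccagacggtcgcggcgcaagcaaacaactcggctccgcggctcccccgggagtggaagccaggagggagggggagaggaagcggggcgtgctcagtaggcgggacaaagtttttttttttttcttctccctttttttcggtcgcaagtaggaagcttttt
ERRFI1: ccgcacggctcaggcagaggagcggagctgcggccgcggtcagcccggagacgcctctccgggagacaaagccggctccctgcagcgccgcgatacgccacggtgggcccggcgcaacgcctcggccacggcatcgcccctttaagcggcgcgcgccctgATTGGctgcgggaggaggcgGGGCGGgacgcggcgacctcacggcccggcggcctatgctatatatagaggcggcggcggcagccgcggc
SPRY4: tcttcggagccgTGACGgactgaattccct

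RefSeq promoters were matched for 7 of the 9 genes, with 11 starts in all. TGACG lay in the 250 upstream bases of 2 of these 11 promoters, 1 of SPRY2 and 1 of SPRY4, and in 21.2% of all 35116 promoters. GGGCGG was found in 6 of the 11 promoters, those of 6 genes, against 42.6% of all promoters, and CCAAT in 2 of the 11 against 32.0%; in SPRED2 it lay before another start, which is not shown. Motifs were searched on both strands and counted where they lay wholly within these bases. The ETS motif CCGGAAG was found in 1 of the 11 promoters, that of SPRY1, and in 8.52% of all promoters. TGACGTCA, which contains TGACG, the AP-1 motif TGANTCA, the FOXO motif GTAAACA and the CArG box of serum response factor were found in 0 of the 11 promoters, against 1.65%, 6.57%, 2.98% and 1.16% of all promoters. A match is a description of these letters and not evidence of binding.

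The first comparison asks how HFM differed from GM after 12 hours. Of the 9 genes, 7 fell, ERRFI1 rose and ETV4 did not pass the test (limma, Benjamini-Hochberg adjusted p under 0.05 over all tested genes). SPRY2 and SPRY4 fell by more than 2-fold, and ETV5 and SPRED2 fell by less. In the background, 33.0% of tested genes were called lower and 28.9% higher, 61.9% in all, so a call alone is common here. A called fall of 2-fold or more was rare, at 0.236% of tested genes, and 2 of the 9 genes had one. The groups did not overlap for 8 of the 9 genes, against 63.6% of tested genes. The median change of the 9 genes was -0.37 and that of all tested genes -0.07. Without HFM replicate 1 the count was again 8, with ETV4 called and SPRED1 not. In that fit the HFM arrays had hybridisation controls of 10.59 and 10.66, against 10.82 to 10.88 in GM. Medium and this array property therefore cannot be told apart in any 12-hour value given without that replicate. In RNA from whole cultures, fewer cells that express a gene and less RNA per cell cannot be told apart.

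At 24 hours, 6 of the 9 genes were lower in HFM, ERRFI1 was higher, and SPRY2 and PHLDA1 did not pass the test. The falls were now led by ETV5, SPRED2 and SPRED1, each past 2-fold, whereas SPRY2 stood at 0.06. In the background, 37.5% of tested genes were called lower and 20.6% higher, 58.1% in all, and 5.20% were called lower by 2-fold or more, as were 3 of the 9 genes. The groups did not overlap for 8 of the 9 genes, against 68.7% of tested genes. The median change of the 9 genes was -0.43 and that of all tested genes -0.08. Centring each array on its median moved the median of all genes at 24 hours from -0.08 to 0.10, and the split of the 9 genes from 1 higher and 6 lower to 3 higher and 4 lower. Over all tested genes the split went from 2700 higher and 4923 lower to 4852 higher and 3434 lower. At 12 hours centring left 1 higher and 7 lower.

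**Figure D1:**
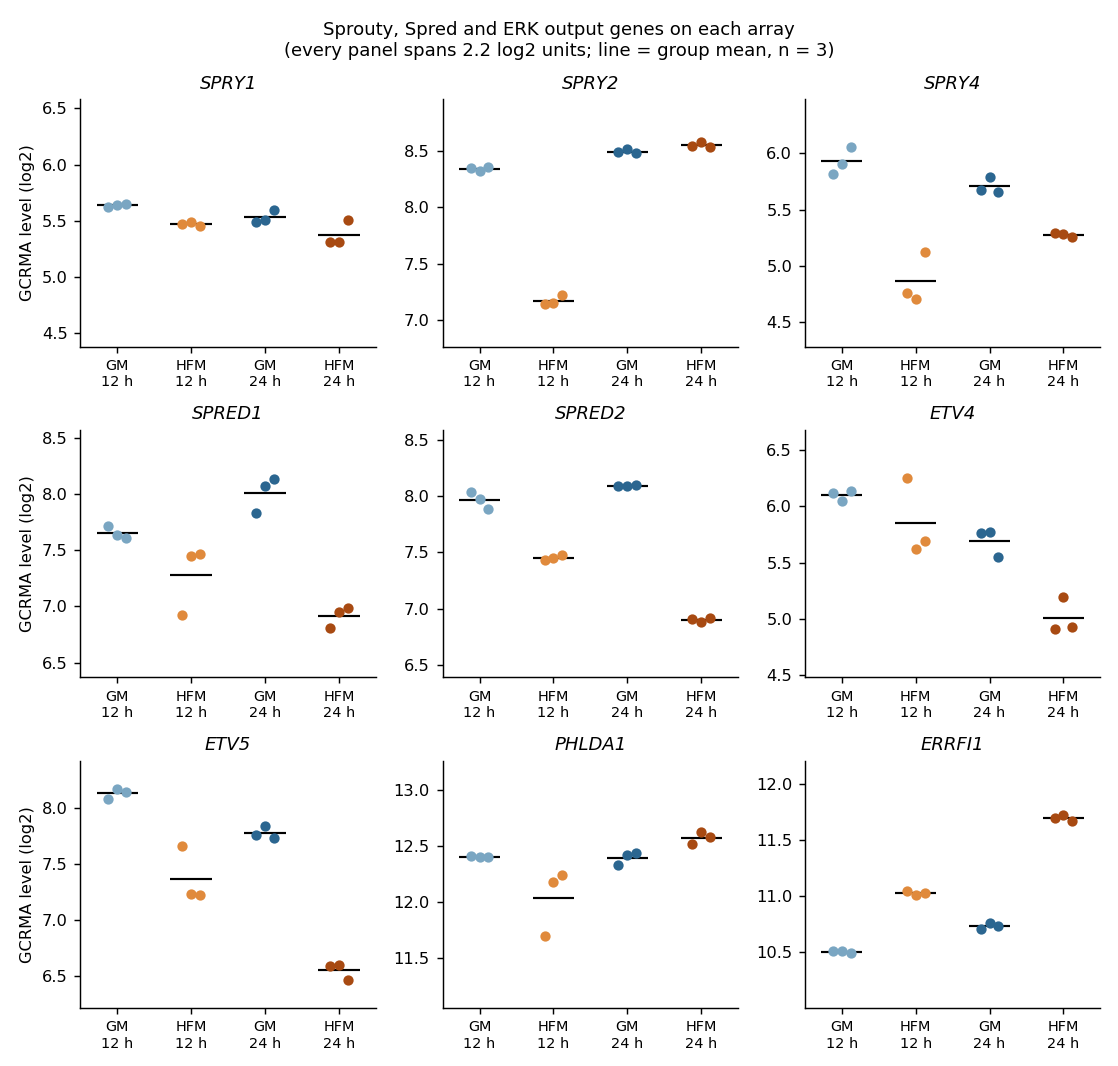
Level of each of the 9 genes on every array (points; log2 GCRMA value on the vertical axis) in GM and HFM at 12 and 24 hours, with the group mean of 3 arrays as a line; every panel spans the same range. SPRY2 is low on the 3 HFM arrays at 12 hours alone (7.14 to 7.22), SPRED2 and ETV5 are lowest in HFM at 24 hours, and ERRFI1 is highest there (11.67 to 11.72).

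SPRY2 encodes an inhibitor of receptor tyrosine kinase signalling that ERK induces. Its level at 12 hours was 8.35, 8.32 and 8.36 on the GM arrays and 7.14, 7.15 and 7.22 on the HFM arrays. At 24 hours it was 8.49, 8.52 and 8.48 in GM and 8.55, 8.58 and 8.54 in HFM. The HFM arrays at 12 hours thus lay more than 1 unit below the 9 other arrays, which spanned less than 0.3 units. The change in HFM was -1.18 ± 0.04 (SE, adjusted p = 1.4e-08) at 12 hours and 0.06 ± 0.04 (adjusted p = 0.28) at 24 hours, and the difference between these changes was 1.23 ± 0.06 (adjusted p = 4.3e-08). From 12 to 24 hours SPRY2 rose by 1.39 ± 0.04 in HFM (adjusted p = 5.9e-10) and by 0.15 ± 0.04 in GM (adjusted p = 0.0096). The 24-hour HFM arrays were all above the GM arrays, and after centring the difference was 0.24 ± 0.05 (adjusted p = 0.0016). SPRY2 had 1 probe set, so no other probe set checks these values.

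SPRY4, another Sprouty inhibitor, also fell by more than 2-fold at 12 hours. Its level was 5.82, 5.91 and 6.06 in GM and 4.76, 4.70 and 5.12 in HFM at 12 hours. The 24-hour levels were 5.67, 5.79 and 5.66 in GM and 5.29, 5.28 and 5.26 in HFM. The groups did not overlap at either time, and both HFM groups lay below both GM groups. The change was -1.07 ± 0.10 (SE, adjusted p = 3.5e-06) at 12 hours and -0.43 ± 0.10 (adjusted p = 0.0027) at 24 hours. The fall was smaller at 24 hours, by 0.64 ± 0.14 (adjusted p = 0.0023). After centring, the change at 24 hours was -0.25 (adjusted p = 0.066). SPRY4 rose from 12 to 24 hours in HFM by 0.42 ± 0.10 (adjusted p = 0.0028), and in GM it stood at -0.22 ± 0.10 (adjusted p = 0.062).

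SPRY1, the remaining Sprouty gene, differed little between the groups. Its level was 5.62, 5.64 and 5.65 in GM and 5.47, 5.49 and 5.45 in HFM at 12 hours. At 24 hours it was 5.49, 5.51 and 5.60 in GM and 5.31, 5.31 and 5.51 in HFM, where the groups overlapped. The change was -0.16 ± 0.06 (SE) at both times, with adjusted p = 0.03 at 12 and 0.037 at 24 hours. Both calls were near the threshold: centring turned the 24-hour change to 0.02, and leaving out single arrays ended the call in 5 of 6 cases at 12 hours and in 4 of 6 at 24 hours. The difference between the times was 0.01 ± 0.08 (adjusted p = 0.95). Its second probe set, at a mean of 4.60, stood at -0.28 ± 0.13 and -0.14 ± 0.13 and did not pass at either time.

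SPRED2 encodes an inhibitor that binds Ras and blocks the activation of Raf. Its level at 12 hours was 8.04, 7.98 and 7.89 in GM and 7.43, 7.45 and 7.48 in HFM. The 24-hour levels were 8.09, 8.09 and 8.10 in GM and 6.91, 6.88 and 6.92 in HFM. The 4 groups were fully separate, in the order GM at 24 hours, GM at 12 hours, HFM at 12 hours and HFM at 24 hours from high to low. The change was -0.52 ± 0.05 (SE, adjusted p = 4.1e-06) at 12 hours and -1.19 ± 0.05 (adjusted p = 2.5e-09) at 24 hours. The difference between these changes was -0.67 ± 0.07 (adjusted p = 8.4e-06). The other 2 probe sets stayed at or below 2.85 on all arrays, under the filter, and give no check; with the mean of all 3 probe sets the difference between times was -0.13 (adjusted p = 0.15).

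SPRED1 belongs to the same family and brings the Ras inhibitor neurofibromin to the membrane. Its level was 7.72, 7.64 and 7.61 in GM and 6.92, 7.45 and 7.47 in HFM at 12 hours, and HFM replicate 1 was the low array. At 24 hours it was 7.83, 8.07 and 8.13 in GM and 6.81, 6.95 and 6.99 in HFM. The change was -0.37 ± 0.13 (SE, adjusted p = 0.028) at 12 hours and -1.10 ± 0.13 (adjusted p = 1.9e-05) at 24 hours. Without HFM replicate 1 the 12-hour change was -0.19 (adjusted p = 0.07), and leaving out GM replicate 1 or 2 also ended that call, at -0.34 (adjusted p = 0.081) and -0.38 (adjusted p = 0.057). A second probe set of SPRED1 rose in HFM at 12 hours by 0.69 ± 0.08 (adjusted p = 2.8e-05), with 6.10, 6.21 and 6.17 in GM and 6.74, 6.85 and 6.95 in HFM. At 24 hours that probe set stood at -0.32 ± 0.08 (adjusted p = 0.0057), and its difference between the times was -1.01 ± 0.12 (adjusted p = 2.2e-05). A fall of SPRED1 was therefore seen on both probe sets at 24 hours, and the probe sets went in opposite directions at 12 hours. For the first probe set the difference between the times was -0.72 ± 0.19 (adjusted p = 0.0069), and after centring -0.52 (adjusted p = 0.06).

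**Figure D2:**
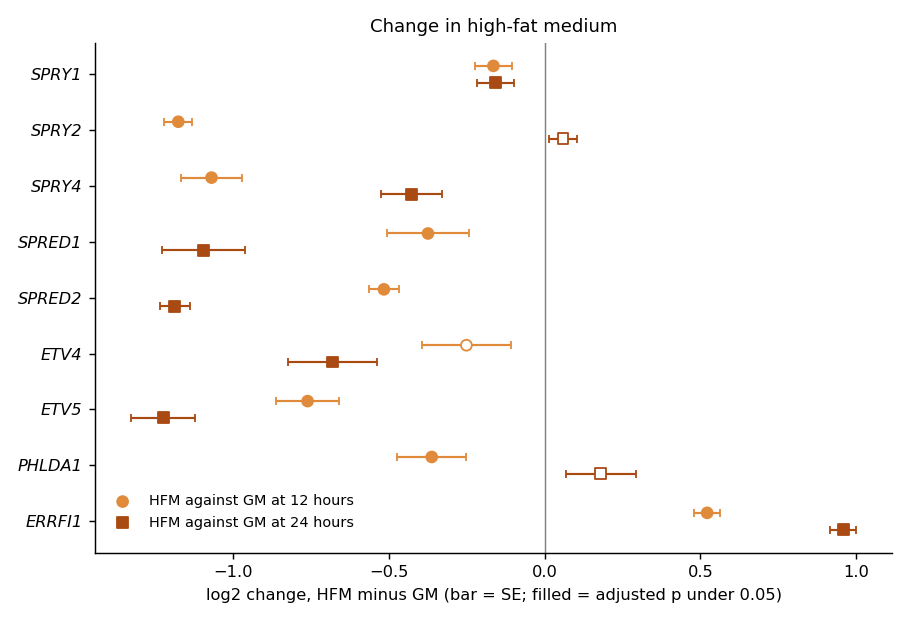
Change of each of the 9 genes in HFM against GM (log2, horizontal axis) at 12 hours (circles) and 24 hours (squares), with standard errors from limma; filled symbols passed the test. SPRY2 and SPRY4 have the largest falls at 12 hours (-1.18 and -1.07), SPRED1, SPRED2 and ETV5 at 24 hours (-1.10, -1.19 and -1.22), and ERRFI1 lies to the right of 0 at both times.

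ETV5 is an ETS transcription factor of the PEA3 subfamily, which receptor tyrosine kinase signalling induces. Its level was 8.08, 8.17 and 8.14 in GM and 7.66, 7.23 and 7.22 in HFM at 12 hours. The 24-hour levels were 7.76, 7.84 and 7.73 in GM and 6.59, 6.60 and 6.47 in HFM. No array of one group overlapped another group, and HFM at 24 hours was lowest. The change was -0.76 ± 0.10 (SE, adjusted p = 6.3e-05) at 12 hours and -1.22 ± 0.10 (adjusted p = 7.7e-07) at 24 hours. Without HFM replicate 1, the highest array of its group, the 12-hour change was -0.91 (adjusted p = 3.9e-07). Another 3 probe sets of ETV5 reached the filter, and each fell at both times, with changes from -0.89 to -0.60 at 12 hours and from -1.34 to -0.39 at 24 hours. The larger fall at 24 hours, a difference of -0.46 ± 0.14 (adjusted p = 0.018), was called on 1 of these 3 probe sets and not on the others, which stood at -0.30 and 0.21. After centring it was -0.26 (adjusted p = 0.064).

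ETV4, a close relative of ETV5, was lower in HFM at 24 hours. Its level at that time was 5.76, 5.77 and 5.55 in GM and 4.91, 5.19 and 4.93 in HFM, with a change of -0.68 ± 0.14 (SE, adjusted p = 0.0014). At 12 hours it was 6.12, 6.05 and 6.14 in GM and 6.25, 5.62 and 5.69 in HFM, so HFM replicate 1 lay above all GM arrays and the other 2 below them. The 12-hour change was -0.25 ± 0.14 (adjusted p = 0.14), and without replicate 1 it was -0.45 (adjusted p = 0.0013). With the hybridisation control term, which leaves 1 HFM array at 12 hours for this comparison, the change stood at 0.15. The second probe set of ETV4 fell at both times, with changes of -0.37 ± 0.12 (adjusted p = 0.019) and -0.41 ± 0.12 (adjusted p = 0.01). From 12 to 24 hours ETV4 changed by -0.41 ± 0.14 in GM (adjusted p = 0.022) and by -0.84 ± 0.14 in HFM (adjusted p = 0.00026). The change in HFM was not shown to differ between the times (-0.43 ± 0.20, adjusted p = 0.093).

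ERRFI1, also known as MIG6, encodes a protein that binds the kinase domain of the EGF receptor and inhibits it. It was the 1 gene of the 9 that rose in HFM. Its level was 10.51, 10.51 and 10.49 in GM and 11.04, 11.01 and 11.03 in HFM at 12 hours. At 24 hours it was 10.71, 10.76 and 10.73 in GM and 11.69, 11.72 and 11.67 in HFM. The groups were fully separate, with little spread among the arrays of a group. ERRFI1 rose by 0.52 ± 0.04 (SE, adjusted p = 1.3e-06) at 12 hours and by 0.96 ± 0.04 (adjusted p = 3.9e-09) at 24 hours, and the rise was larger at 24 hours by 0.44 ± 0.06 (adjusted p = 7.9e-05). It kept this direction and call under each alternative tried, apart from a required 2-fold change. ERRFI1 had 1 probe set, so no other checks it.

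PHLDA1, which encodes a small protein with a pleckstrin homology-like domain, had 6 probe sets above the filter that did not move together. The probe set with the highest mean was 12.41, 12.40 and 12.40 in GM and 11.70, 12.18 and 12.24 in HFM at 12 hours. At 24 hours it was 12.33, 12.42 and 12.44 in GM and 12.52, 12.62 and 12.58 in HFM. It was lower at 12 hours (-0.36 ± 0.11, SE, adjusted p = 0.015; -0.19 without HFM replicate 1) and did not pass at 24 hours (0.18 ± 0.11, adjusted p = 0.19). At 12 hours 2 other probe sets fell, both at -0.26, another 2 rose, by 0.26 and 0.81, and 1 stood at -0.06. At 24 hours 2 others rose, by 0.57 and 0.48, another 2 fell, at -0.55 and -0.76, and 1 stood at 0.16. No direction for PHLDA1 as a gene is drawn from these values, and its count among the 9 genes rests on 1 probe set. The places of the probe sets along the transcript were not used here. The ACTB integrity measure was highest in HFM at 24 hours (1.58), and its part in these values was not tested.

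**Figure D3:**
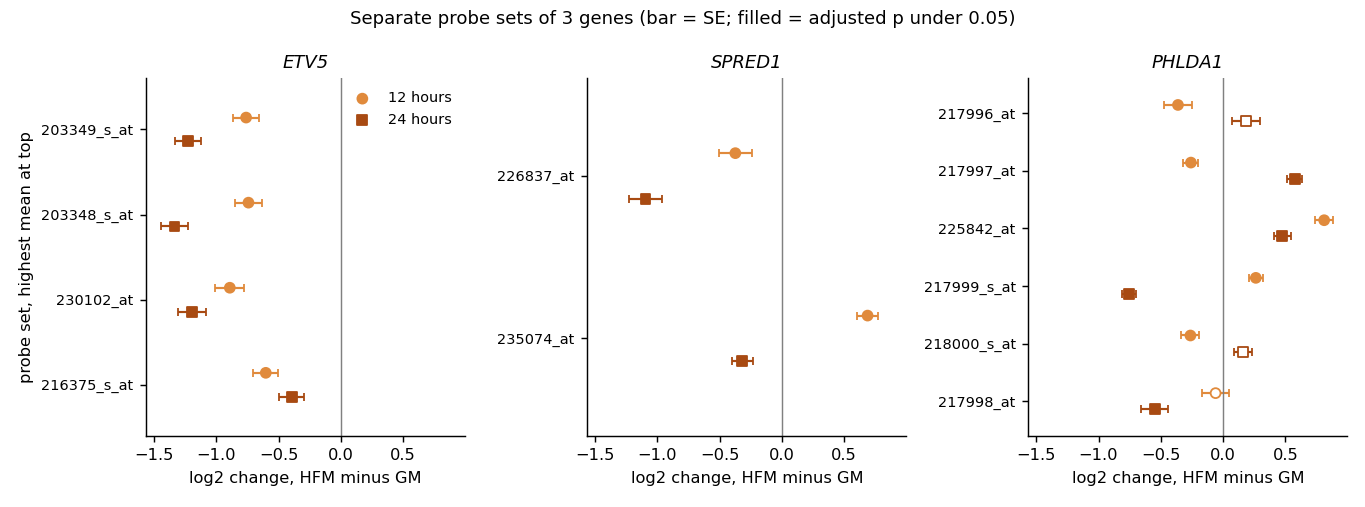
Change in HFM against GM (log2, horizontal axis) for each probe set of ETV5, SPRED1 and PHLDA1 that reached the filter, at 12 hours (circles) and 24 hours (squares), with standard errors from limma fitted to all probe sets; filled symbols passed the test. The 4 probe sets of ETV5 lie left of 0 at both times, those of SPRED1 split at 12 hours (-0.37 and 0.69), and those of PHLDA1 lie on both sides at both times.

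The HFM effect differed between 12 and 24 hours for 7 of the 9 genes in limma, against 52.8% of tested genes. For 4 of them the difference pointed up (SPRY2, SPRY4, PHLDA1 and ERRFI1) and for 3 it pointed down (SPRED1, SPRED2 and ETV5), against 19.4% and 33.4% of tested genes. Only SPRY2 among the 9 had a called difference of 2-fold or more, against 1.25% of tested genes in that direction. After centring, 5 of the 9 were called, 4 up and 1 down, and all tested genes went from 2551 up and 4380 down to 5068 up and 3134 down (3486 and 3871 with repeated quantile normalisation). SPRY2 and SPRY4 had their lowest group mean in HFM at 12 hours, and SPRED2 and ETV5 in HFM at 24 hours. The main probe set of SPRED1 was also lowest in HFM at 24 hours, overlapping HFM at 12 hours, and its second probe set was lowest in GM at 12 hours (6.16). For SPRY1 and ETV4 no difference between the times was shown. Over the 12 arrays, which form 4 groups of 3, Pearson's r was 0.73 between SPRY2 and SPRY4, 0.92 between SPRED2 and ETV5, 0.10 between SPRY2 and SPRED2, and -0.98 between ETV5 and ERRFI1. These values describe the group means above all.

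From 12 to 24 hours in GM, SPRED1, SPRED2, SPRY2 and ERRFI1 rose, ETV4 and ETV5 fell, and 3 genes did not pass the test. In the background 29.4% of tested genes were called higher and 40.5% lower over that time, 69.9% in all. The changes lay between -0.41 for ETV4 and 0.35 for SPRED1, and none reached 2-fold; the groups did not overlap for 8 of the 9, against 78.9% of tested genes. Time and the hybridisation control class cannot be told apart within GM, where the 3 arrays at 12 hours were in the high class and the 3 at 24 hours in the low class. With a term for that class, estimated from the HFM arrays at 12 hours, 2 genes were called, and SPRED1, ETV4 and ETV5 turned sign (-0.19, 0.18 and 0.086). With repeated quantile normalisation 1 gene was called higher and 4 lower, in place of 4 higher and 2 lower. The count of 6 was 3 without GM 12-hour replicate 3 and 3 without GM 24-hour replicate 3. Over the arrays left out in turn, the SPRED2 call was kept in 1 of 6 fits (without GM 12-hour replicate 1; range 0.08 to 0.16), that of SPRED1 in 2 of 6 (without GM 12-hour or 24-hour replicate 1; 0.29 to 0.44) and that of ETV4 in 3 of 6 (lost without GM 12-hour replicate 1 or 3 or GM 24-hour replicate 3; -0.45 to -0.34). The comparison shares its 12-hour GM arrays with that of HFM at 12 hours. The values side by side were -1.18 in HFM and 0.15 over time for SPRY2, -0.52 and 0.12 for SPRED2, -0.76 and -0.35 for ETV5, and 0.52 and 0.23 for ERRFI1. From 12 to 24 hours in HFM, 4 genes rose (SPRY2, SPRY4, PHLDA1 and ERRFI1), 4 fell (SPRED1, SPRED2, ETV4 and ETV5) and SPRY1 did not pass, against 20.1% and 43.1% of tested genes and 63.1% in all. SPRY2 alone of the 9 rose by 2-fold or more, against 2.35% of tested genes, and the groups did not overlap for 7 of the 9, against 65.9%. After centring 4 rose and 3 fell, with SPRED1 at -0.15 (adjusted p = 0.4), and all tested genes went from 2637 higher and 5653 lower to 5133 higher and 3790 lower. The SPRED1 call was kept in 2 of 6 fits that leave out 1 array, those without HFM 12-hour replicate 1 and HFM 24-hour replicate 3, with changes from -0.55 to -0.27.

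Other ERK output genes were read from a list of 21, of which 18 were tested. The list also holds the transcription factor genes ELK1, ELK4 and SRF, and whether ERK induces each listed gene in these cells was not tested. At 12 hours in HFM, 1 of the 18 rose, 16 fell and 1 did not pass, against 28.9% of tested genes higher and 33.0% lower. The median was -0.49 against -0.07 for all tested genes. Without HFM replicate 1 the counts were 1 and 15. The gene that rose in the main fit was ELK4 (0.80 ± 0.07), which also rose at 24 hours (0.76 ± 0.07). At 24 hours 7 of the 18 rose, 9 fell and 2 did not pass, against 20.6% of tested genes higher and 37.5% lower. The median was then -0.17 against -0.08. The ERK phosphatase genes DUSP4, DUSP5 and DUSP6 show how members of this list came apart. DUSP6 was 8.78, 8.73 and 8.72 in GM and 7.17, 7.44 and 7.40 in HFM at 12 hours, a change of -1.40 ± 0.09 (SE, adjusted p = 1.8e-07). Its change at 24 hours was 0.03 ± 0.09 (adjusted p = 0.78), so like SPRY2 it was called at 12 hours alone. DUSP4 changed by -1.95 ± 0.11 (adjusted p = 8.8e-08) and -0.51 ± 0.11 (adjusted p = 0.0014), lower at both times as SPRY4 was. DUSP5 fell by 0.48 ± 0.08 at 12 hours (adjusted p = 0.00028) and rose by 1.77 ± 0.08 at 24 hours (adjusted p = 4.6e-09). The immediate early gene IER2 changed by -1.15 ± 0.05 at 12 hours and -0.43 ± 0.05 at 24 hours, both called. ETV1, the third PEA3 factor gene, changed by -0.49 ± 0.07 and -1.96 ± 0.07, both called. HMGA2, a chromatin protein gene, stood at -0.03 ± 0.05 at 12 hours and fell by 1.12 ± 0.05 at 24 hours.

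**Figure D4:**
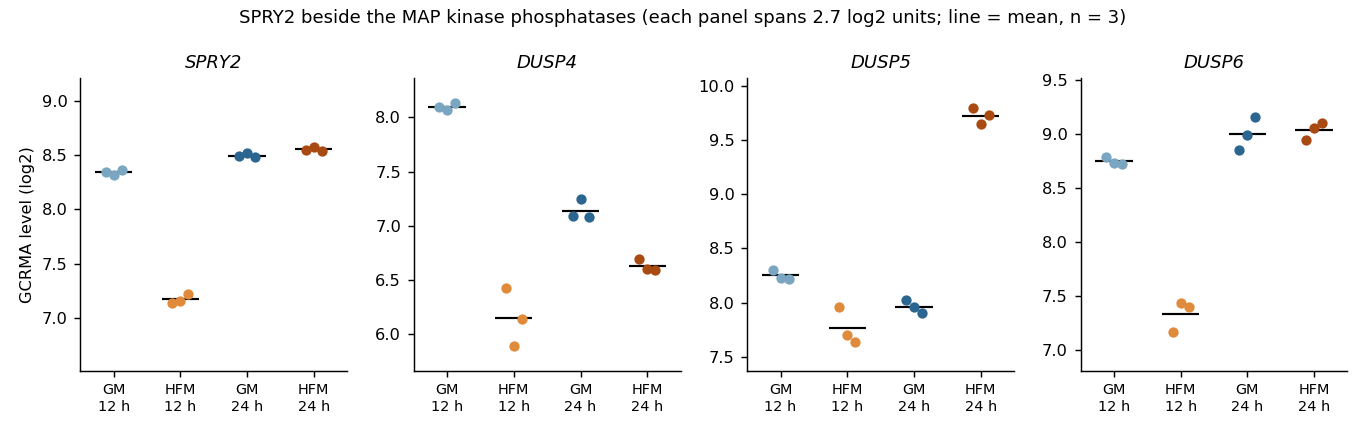
Level of SPRY2 and of the ERK phosphatase genes DUSP4, DUSP5 and DUSP6 on every array (points; log2 GCRMA value on the vertical axis), with the group mean of 3 arrays as a line; the panels span the same range. All 4 genes are lower in HFM than in GM at 12 hours; at 24 hours SPRY2 and DUSP6 stand at or just above GM, DUSP4 stays lower and DUSP5 is higher.

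Among the genes upstream of ERK, calls went in both directions. Of all tested genes, 28.9% were called higher and 33.0% lower at 12 hours, and 20.6% and 37.5% at 24 hours. The shares of the ligands at both times and of the receptors at 24 hours were near or under these. Those of the adaptor, Ras and cascade genes were above them in both directions at both times, as was the share of receptors that fell at 12 hours. Of 14 tested growth factor ligands, 4 rose, 3 fell and 7 did not pass at 12 hours, and 3 rose, 2 fell and 9 did not pass at 24 hours. HBEGF, a ligand of the EGF receptor, fell by 0.93 ± 0.09 at 12 hours and stood at -0.10 ± 0.09 at 24 hours. PDGFB fell at both times (-0.44 ± 0.09 and -0.49 ± 0.09). The fibroblast growth factor gene FGF2 rose at both times (0.87 ± 0.06 and 1.17 ± 0.06). VEGFC stood at 0.04 ± 0.07 at 12 hours and rose by 0.47 ± 0.07 at 24 hours.

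Of 16 tested receptor tyrosine kinases, 4 rose, 7 fell and 5 did not pass at 12 hours. At 24 hours 3 rose, 4 fell and 9 did not pass, and centring gave 7 higher and 2 lower. ERBB3 rose at both times (1.01 ± 0.05 and 1.19 ± 0.05). EGFR, the target of the ERRFI1 protein, fell at both times (-0.25 ± 0.05 and -0.95 ± 0.05). EPHA2 fell by 0.68 ± 0.08 at 12 hours and stood at 0.02 ± 0.08 at 24 hours. Other receptors were called in opposite directions at the 2 times: MET, the receptor of hepatocyte growth factor, stood at 0.46 ± 0.04 and -0.17 ± 0.04, and EPHA4 at 0.18 ± 0.06 and -1.19 ± 0.06.

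Of 15 adaptor, Ras and cascade genes tested, 6 rose, 7 fell and 2 did not pass at 12 hours. At 24 hours 6 rose, 6 fell and 3 did not pass, and centring gave 7 higher and 4 lower. HRAS fell by 0.73 ± 0.08 at 12 hours and also fell at 24 hours. The Ras activator genes SOS1 and SOS2 were both higher at 12 hours (0.69 ± 0.07 and 0.32 ± 0.09) and both lower at 24 hours (-0.40 ± 0.07 and -0.70 ± 0.09), all 4 called. The ERK-activated kinase gene RPS6KA3 rose at both times (0.80 ± 0.06 and 0.25 ± 0.06), and RPS6KA1 fell at both (-0.65 ± 0.11 and -0.56 ± 0.11).

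Of 12 tested partners and other negative regulators, 5 rose and 3 fell at 12 hours, against 28.9% and 33.0% of tested genes. At 24 hours 6 rose and 2 fell, against 20.6% and 37.5%. After centring 5 rose and 5 fell at 12 hours and 8 rose at 24 hours. CBLB, a ubiquitin ligase for receptors, rose at both times (0.38 ± 0.06 and 1.44 ± 0.06). The Ras GTPase activator gene RASAL2 rose at both times (0.74 ± 0.08 and 0.68 ± 0.08), and RASA2 rose by 0.44 ± 0.10 at 12 hours and stood at 0.23 ± 0.10 at 24 hours. NF1, which encodes the neurofibromin that SPRED1 binds, is counted among the genes that rose at both times, but it passed the filter through HFM at 24 hours alone, at 5.74 ± 0.06 (SD, n = 3). Its means in the other 3 groups were under the filter level, so no size of change is given. CNKSR1, counted as higher at 24 hours, had a mean of 4.21 ± 0.28 in HFM at that time. Its means in the other 3 groups were also under the filter level. The counts of genes that rose include NF1 at both times and CNKSR1 at 24 hours, so they are not read as a result about this list.

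The genes most like a member were sought among 4224 tested genes with a mean of 6 or more and an SD of 0.3 or more over the 12 arrays, for the 3 members with the widest range of group means. For SPRY2 these were DUSP6 (Pearson's r = 0.991), PTX3 (0.986) and IL1B (0.966). All 3 had their lowest group mean in HFM at 12 hours, 7.34 for DUSP6, 6.49 for PTX3 and 7.19 for IL1B, with the other 3 groups at 7.74 or above. For ETV5 they were MAP3K14 (0.995), SF1 (0.994) and TP53I3 (0.993), and for ERRFI1 CBFA2T2 (0.999), KHDC4 (0.998) and P4HA1 (0.997). Many genes follow the 4 group means, so high values of r are common over these 12 arrays.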

How the data were processed

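Expression was measured in 12 samples of Sk-hep1 cells on Affymetrix arrays of 54675 probe sets. The deposited values are log2 signals, which the authors computed with GCRMA, per the submitters' processing notes; its version was not given in the sources used here. GCRMA as usually run equalises the distributions of the arrays, which can reduce a shift of most genes in one direction. Of the probe sets, 41097 had 1 symbol, 1801 several and 11777 none, and the latter kinds were not used. Each gene was read from its probe set with the highest mean, and a gene was tested if 3 or more arrays reached log2 4. A model of 4 group means was fitted with limma 3.58.1 (lmFit and eBayes) in R 4.3.3, and p-values were adjusted by Benjamini-Hochberg over 13130 genes. All gene p-values are from this fit; those of further probe sets are from the same model over 29787 probe sets. The fit was tested on simulated data. Members, lists and tests were chosen with earlier results of these data known. Named genes were the 9 members, DUSP4 to DUSP6, and up to 3 called genes of each list with the largest change at 12 and 24 hours. ELK1, ELK4, SRF and CNKSR1 were named outside this rule. Alternatives covered filters, probe sets, scaling, moderation, a replicate block, a hybridisation control term, a 2-fold minimum and each array left out. Promoters came from RefSeq, GRCh38.p14. Figures used matplotlib 3.10.9 in Python 3.11.15.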

Additional observations from a re-analysis of the deposited data

Results flagged for a closer look

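The effect of HFM differed between 12 and 24 hours for 7 of the 9 genes by the interaction term in limma (adjusted p under 0.05), against 52.8% of all tested genes; after centring the arrays 5 of the 9 were called, without SPRED1 and ETV5. As the log2 change at 24 hours minus that at 12 hours, the difference was 1.23 for SPRY2, 0.64 for SPRY4, 0.54 for PHLDA1 and 0.44 for ERRFI1, and -0.72 for SPRED1, -0.67 for SPRED2 and -0.46 for ETV5. For PHLDA1, 3 of its 6 probe sets gave a called difference of the opposite sign, at -0.49, -1.02 and -0.34. Groups of 3 arrays are too small for the test of single outlying arrays.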

How the results depend on the processing

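The 9 genes gave 45 changes over 5 comparisons and 845 values under the alternatives, of which 827 kept their sign. With the replicate block, 8 and 7 genes were called in HFM at 12 and 24 hours, 5 over time in GM, 8 over time in HFM and 7 for the difference between times; the lost call was SPRED2 over time in GM. Deviations of arrays with the same replicate number correlated at r between -0.17 and 0.42, with a median of 0.03. For arrays of other groups with another number, r lay between -0.49 and 0.44, with a median of 0. The numbers were therefore not taken as pairs. With a 2-fold minimum the counts were 2, 3, 0, 1 and 1. With the hybridisation control term, which leaves 1 HFM array at 12 hours for the comparison with GM at that time, 2 genes were called over time in GM. Leaving out single arrays gave 6 to 8, 6 to 7, 3 to 6, 7 to 9 and 7 to 8 genes. Signs turned with the mean of probe sets for SPRED1 (0.012) and PHLDA1 (0.022) at 12 hours, SPRED2 (-0.042) and PHLDA1 (0.15, called) over time in GM and PHLDA1 (-0.0080) between times. With centring they turned for SPRY1 at 24 hours (0.022) and over time in HFM (0.12) and PHLDA1 over time in GM (0.0052; 0.017 with repeated quantile normalisation). With the control term they turned for ETV4 at 12 hours (0.15) and over time in GM (0.18), SPRED1 (-0.19) and ETV5 (0.086) over time in GM. Without single arrays the difference between times of SPRY1 ran from -0.058 to 0.040 and the change of PHLDA1 over time in GM from -0.034 to 0.025. The causes were not tested. Calls of other ERK output genes as lower ranged from 13 to 17 at 12 hours and from 8 to 10 at 24 hours, apart from the 2-fold minimum with 3 at each time; these alternatives were added after seeing the data. The number of arrays limits the precision.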
